A study of Danio rerio with 21 samples.

Results

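The nuclear genes of oxidative phosphorylation were followed in whole zebrafish larvae carrying frameshift mutations in *pomgnt2*. They were chosen by gene symbol: every gene whose symbol began with nduf followed by a, b, c, s or v (complex I), sdh followed by a to d (complex II), uqcr (complex III), cox with a digit from 4 to 8 (complex IV) or atp5 (complex V), and that reached 10 counts in at least 3 of the 21 samples. Of 36351 genes in the count table, 102 had such a symbol and 98 passed, and all 98 were tested in every comparison. They comprised 45 genes of complex I, 9 of complex II, 7 of complex III, 18 of complex IV and 19 of complex V. The symbols also took in 7 assembly factors of complex I (*ndufaf1* to *ndufaf7*), 4 of complex II (*sdhaf1* to *sdhaf4*) and both inhibitors of the ATP synthase (*atp5if1a* and *atp5if1b*), which are not subunits of the finished complexes. *ndufa4* and its relatives were counted with complex I because of their name, although the mammalian NDUFA4 protein is now placed in complex IV. The other 4 matching genes were left out for low counts. *ndufb4* had 0 counts in every sample, *ndufs1* at most 1, *ndufs8b* at most 4, and *uqcrb* at most 16 with 10 or more in 2 samples. Whether reads of *ndufb4* and *ndufs1* were assigned elsewhere by the annotation or the counting was not tested.

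Oxidative phosphorylation takes place in the inner mitochondrial membrane. Complexes I and II pass electrons from NADH and succinate to ubiquinone, complexes III and IV carry them on through cytochrome c to oxygen, and complex V, the ATP synthase, makes ATP from the proton gradient that complexes I, III and IV build up. Complex II differs from complexes I, III and IV in that it pumps no protons and is also the succinate dehydrogenase of the tricarboxylic acid (TCA) cycle. It is built from nuclear genes alone, whereas the other complexes combine nuclear subunits with subunits made from mitochondrial DNA. Muscle is among the tissues richest in these complexes, and complex IV has muscle and heart isoforms of several subunits in mammals.

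*pomgnt2* encodes a glycosyltransferase needed to glycosylate α-dystroglycan, and its loss causes congenital muscular dystrophy. The fish were of the EK strain, and the mutant allele carries a frameshift in each of its coding exons. WT, heterozygous (Het) and zygotic knockout (ZKO) larvae came from crosses of Het parents. Maternal heterozygotes (MHet) and maternal-zygotic knockouts (MZKO) came from ZKO females crossed with Het males, so that their mothers carried no functional copy of the gene. Each sample was a pool of 4 to 6 whole larvae of 1 genotype, and 7 groups had 3 pools apiece. All 5 genotypes were collected at 5 days post-fertilization (dpf), and MHet and MZKO again at 10 dpf. No offspring of Het females at 10 dpf were analysed here, so the mothers were compared at 5 dpf alone. The mother's genotype and the kind of cross cannot be told apart, and neither can age and batch, since the labels put all 5 dpf pools in batch 1 and all 10 dpf pools in batch 2. The larvae of 10 dpf had been housed apart by genotype, so own genotype and housing cannot be told apart at that age. Nothing in the labels says more of the replicates than that they were separate pools, so p-values measure the spread between pools. Because whole larvae were used, fewer cells of a type and less RNA per cell cannot be told apart.

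Each pool gave between 16959935 and 22439739 counts, and 3 counts corresponded to at most 0.196 CPM (counts scaled to the size of the library). *pomgnt2* itself lay between 13.1 and 19.9 CPM in all 21 pools. It did not pass an adjusted p under 0.05 in any comparison (edgeR), so it gives no check of the labels. At 5 dpf its MZKO pools (18.4 to 18.7 CPM) lay above its MHet pools (14.1 to 17.7 CPM), with an adjusted p of 0.114 (edgeR). The 98 genes together took 0.931% to 1.14% of a pool's counts. WT pool 1 and WT pool 3 differed the most among pools of 1 group, with a chi-square of 24.6 per gene against 6.58 for the most similar pair. No gene is ranked against another by level here, because CPM is not corrected for gene length. A gene was called higher or lower at an adjusted p under 0.05 over all genes tested (edgeR), and was a differentially expressed gene (DEG) at an adjusted p under 0.01 with an absolute log2 fold change over 0.7.

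The mother's genotype at 5 dpf was compared between the 6 pools of MHet and MZKO and the 6 pools of Het and ZKO. Complex II had the highest share of calls of the 5 complexes: 7 of its 9 genes (77.8%) were higher in the offspring of ZKO females and 0 were lower. The median of the 9 was 0.47 on the log2 scale. The 7 were the subunits *sdha*, *sdhb* and *sdhc* and the assembly factors *sdhaf1* to *sdhaf4*. The symbols took in assembly factors of complexes I and II alone, so the shares of the complexes are not like for like. Over all genes tested, 15.6% were called higher and 15.8% lower in this comparison, and 6.01% were DEGs, so a call as such was common. Across the 98 members, 18 (18.4%) were higher and 1 was lower, with a median of 0.04 beside a median of 0.00 for all genes. Outside complex II, 11 of 89 members were higher and 1 lower. Without ZKO pool 1 the number called higher was 27, and without MHet pool 3, MZKO pool 1, ZKO pool 2 or ZKO pool 3 the number called lower was 2.

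Markers of several tissues moved in the same comparison. All 3 lens markers were DEGs that were lower in the offspring of ZKO females (median −1.10), with sums of 818 to 981 CPM in Het, 745 to 961 CPM in ZKO, 498 to 626 CPM in MHet and 391 to 450 CPM in MZKO. All 4 neuron markers were below 0 with 2 called (median −0.32), at 1394 to 1480 CPM in Het, 1450 to 1561 CPM in ZKO, 1288 to 1312 CPM in MHet and 1132 to 1185 CPM in MZKO. All 4 exocrine pancreas markers were below 0 with 1 called (median −1.14), at 792 to 1993 CPM in Het, 729 to 1170 CPM in ZKO, 420 to 1072 CPM in MHet and 284 to 539 CPM in MZKO, so MHet overlapped Het and ZKO while MZKO lay below both. Of 5 ionocyte markers 3 were higher and 1 lower. Ionocyte sums were 220 to 279 CPM in Het, 244 to 262 in ZKO, 245 to 263 in MHet and 335 to 367 in MZKO. Of 4 liver markers 1 was higher, by 1.55, and 2 lay below 0. Liver sums were 2195 to 2741 CPM in Het, 1453 to 1594 in ZKO, 2354 to 2421 in MHet and 1404 to 2417 in MZKO. Of 3 markers each, photoreceptor, gut and slow muscle had 1 called lower (*gnat2* −0.67, *fabp2* −0.54, *tnnc1b* −0.25). None of these 3 tissues was lower as a list. Of the 3 markers, 2 were above 0 in photoreceptor (median 0.00) and 2 in gut (median 0.08). In slow muscle 1 was above 0 and 2 below (median −0.01). None of the markers of these tissues was at 0 in all 3 pools of a group, and their part in the levels of the complex II genes was not tested.

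*sdha*, which encodes the flavoprotein that oxidizes succinate, was 1 of 2 DEGs among the members. It measured 156, 154 and 139 CPM in the Het pools and 142, 146 and 152 CPM in the ZKO pools. In the offspring of ZKO females it measured 312, 262 and 258 CPM in MHet and 223, 226 and 221 CPM in MZKO. All 6 pools from ZKO females lay above all 6 pools from Het females, and the WT pools (163, 157 and 129 CPM) lay below all of the former. The log2 fold change was 0.75 ± 0.06 (SE), or 1.68-fold, with an adjusted p of 6.05e-09, and no pool left out removed the call.

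*sdhaf2*, the assembly factor that helps attach the flavin cofactor to SDHA, separated the same pools by the largest fold of the members called. Its levels were 18.6, 17.2 and 19.3 CPM in Het, 22.1, 20.1 and 21.1 CPM in ZKO, 35.8, 39.0 and 39.0 CPM in MHet and 36.3, 39.5 and 34.3 CPM in MZKO. The pools of ZKO females did not overlap those of Het females or the WT pools, which ran from 18.8 to 21.5 CPM. *sdhaf2* was 1.90-fold higher (log2 0.93 ± 0.07, adjusted p 3.95e-10), and it was the other DEG among the members.

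*sdhb* encodes the iron-sulfur subunit that hands electrons from SDHA towards ubiquinone. It lay at 129, 144 and 114 CPM in Het, 136, 130 and 139 CPM in ZKO, 226, 214 and 190 CPM in MHet and 166, 171 and 163 CPM in MZKO. The groups of the 2 kinds of mother did not overlap, and the MHet pools were also above the MZKO pools. The log2 fold change over the mother's genotype was 0.51 ± 0.06 (adjusted p 9.32e-07).

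The other genes of complex II had smaller changes or lower counts. *sdhaf1* and *sdhaf3*, which in yeast and mammals help load iron-sulfur clusters into SDHB, were both higher by 0.47 (log2; adjusted p 0.00237 and 0.00747), at levels of 4.58 to 12.0 CPM in the 12 pools compared. *sdhaf4*, which binds flavinated SDHA, was higher by 0.41, and *sdhc*, a membrane anchor, by 0.23. In all 4 of these genes the pools of the 2 kinds of mother overlapped, and *sdhc* was called in 7 of the 12 fits that left out 1 pool. The other anchor has 2 copies in zebrafish: *sdhdb* was not called (log2 0.11 ± 0.06, adjusted p 0.20), and neither was *sdhda* (−0.71 ± 0.27, adjusted p 0.051), a gene of only 0.60 to 2.71 CPM in those pools whose reads may be split with its paralog.

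**Figure D1:**
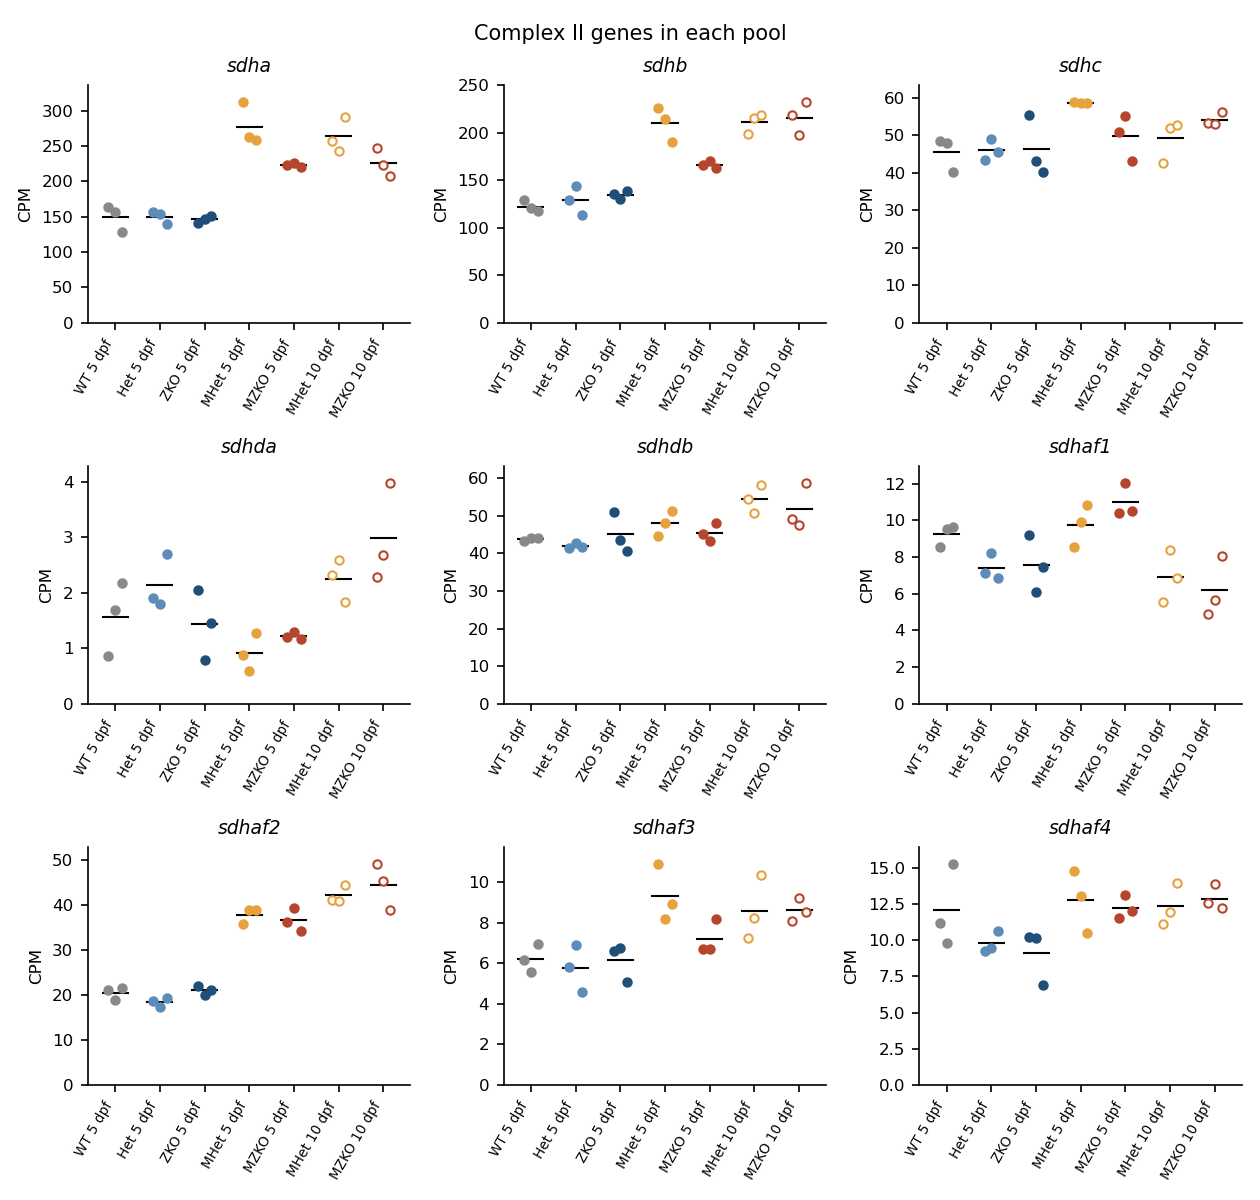
Level of each complex II gene (y axis, CPM, from 0) in every pool (points) of the 7 groups (x axis), with the group mean as a line and open points for 10 dpf. *sdha*, *sdhb* and *sdhaf2* were higher in every pool from a ZKO female than in every pool from a Het female, and the 10 dpf pools of *sdha* lay between 208 and 291 CPM.

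The mother's genotype could be examined separately within each own genotype, in 2 comparisons that share no pool. They are not independent repeats. MHet and MZKO came from the same kind of cross, as did Het and ZKO. Both comparisons also used 1 fit of all 15 samples of 5 dpf, with 1 shared estimate of the spread. In heterozygotes (MHet against Het), 15 members (15.3%) were higher and 2 lower, against 8.19% and 8.76% of all genes, and 5 were DEGs (background 3.79%). The median of the members was 0.11, with 81 of 98 above 0. The DEGs were *sdhaf2* (1.05 ± 0.09), *sdha* (0.90 ± 0.09), *sdhb* (0.71 ± 0.09), *sdhaf3* (0.71 ± 0.18) and *ndufaf4* (0.94 ± 0.21), so 4 of the 5 belonged to complex II. *sdhaf3* was not called without Het pool 3 or MHet pool 1. Next by p came *ndufv1* (0.60 ± 0.08) and *uqcrc2b* (0.37 ± 0.08), and all 7 genes of complex III were above 0 with 3 called. Of those 3, *uqcrc2b* was called in all 6 fits that left out 1 pool, *uqcrfs1* in 2 and *uqcrh* in 1. Without Het pool 3 or MHet pool 1, 8 and 9 members were called higher.

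*ndufaf4*, an assembly factor of complex I, is the DEG outside complex II. Its counts were low, at 3.41, 3.71 and 2.51 CPM in Het and 6.00, 6.00 and 6.38 CPM in MHet, and these pools did not overlap. In ZKO (4.32, 4.19 and 4.96 CPM) and MZKO (3.57, 5.21 and 4.68 CPM) they did. The members lower in MHet than in Het were *sdhda* (log2 −1.21 ± 0.39) and *ndufa4l2a* (−0.72 ± 0.25), a relative of *ndufa4*, and both lay at or under 3.10 CPM in the pools compared. They were called in 3 and 2 of the 6 fits that left out 1 pool, and without Het pool 1, Het pool 2 or any 1 MHet pool a single member was called lower.

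In knockouts (MZKO against ZKO), 7 members (7.14%) were higher and 4 (4.08%) lower. These shares were below those of all genes, of which 11.8% were higher and 11.9% lower, and 1 member was a DEG where 5.6% of all genes were. The median of the members was −0.02 and 46 of 98 were above 0. *sdhaf2* was again the DEG (0.80 ± 0.09), followed by *sdha* (0.61 ± 0.09), *ndufv1* (0.34 ± 0.08), *sdhb* (0.30 ± 0.09) and *sdhaf1* (0.53 ± 0.16). *sdhaf1* was not called without MZKO pool 2 or ZKO pool 2. *cox6b1* of complex IV was also called higher. In the 6 fits that left out 1 pool its values ran from 0.19 to 0.40, and it was called in 3. The members lower in MZKO were *ndufb10* and *ndufb8* of the membrane arm of complex I, and *cox7a2a* and *cox6b2* of complex IV, by 0.25 to 0.36 on the log2 scale. Without MZKO pool 3 or ZKO pool 1 none of the members was called lower in edgeR, without ZKO pool 2 the number was 1, and without MZKO pool 2 the number called higher was 4.

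Of the 17 members called in heterozygotes and the 11 called in knockouts, 4 were called in both and in the same direction: *sdha*, *sdhb*, *sdhaf2* and *ndufv1*. Leaving out any 1 pool kept all 4 called, in either comparison.

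**Figure D2:**
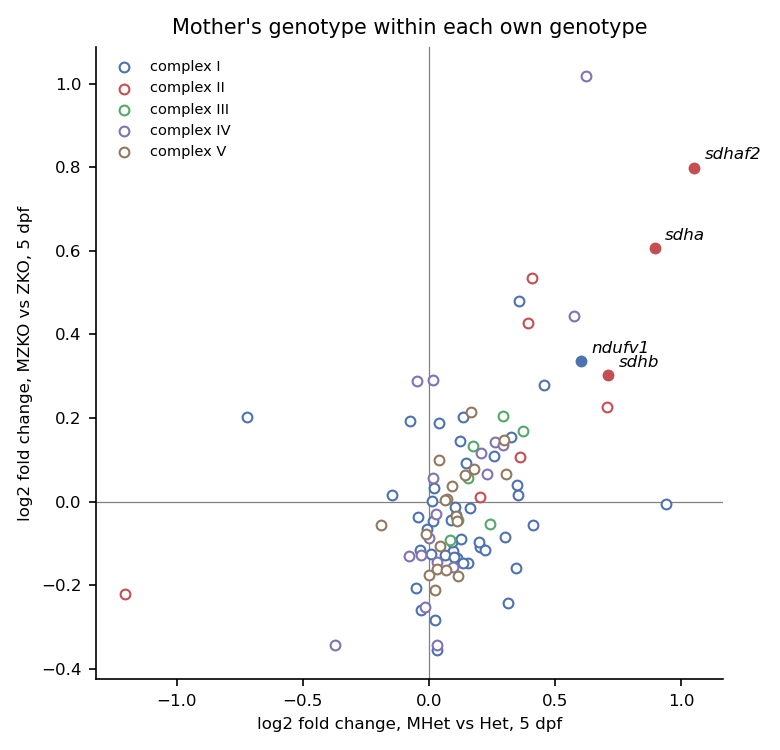
Log2 fold change of the 98 members between MHet and Het (x axis) and between MZKO and ZKO (y axis) at 5 dpf, coloured by complex, with filled and named points for the members called in both. The filled points are 3 genes of complex II and *ndufv1* of complex I, all above 0 on both axes.

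*ndufv1*, the complex I subunit that binds NADH and FMN, had the next smallest p after *sdhaf2* and *sdha* over the mother's genotype. Its levels were 148, 152 and 145 CPM in Het, 163, 140 and 155 CPM in ZKO, 243, 223 and 208 CPM in MHet and 190, 195 and 194 CPM in MZKO. Every pool from a ZKO female was above every pool from a Het female (log2 0.47 ± 0.05, adjusted p 6.13e-07). Its partner subunits did not follow as a group. Of 38 complex I subunits, *ndufv1* included, 5 (13.2%) were higher and 0 lower (background 15.6% and 15.8%), with a median of 0.01. With the assembly factors, 6 of the 45 genes of complex I were higher and 0 lower, with a median of 0.03.

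Other complex I genes higher in the offspring of ZKO females included *ndufab1a* (0.37 ± 0.08), the acyl carrier protein of mitochondria, *ndufa10* (0.24 ± 0.07), *ndufaf4* (0.47 ± 0.15) and *ndufs7* (0.18 ± 0.07), which carries the last iron-sulfur cluster before ubiquinone. In each of these the pools of the 2 kinds of mother overlapped. *ndufab1a* has a near copy, *ndufab1b*, and reads that match both may have been split. *ndufs7* was called in 6 and *ndufaf4* in 10 of the 12 fits that left out 1 pool.

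In complex III, 2 of 7 genes (28.6%) were higher: *uqcrc2b*, a core protein (0.27 ± 0.06), and *uqcrfs1*, the Rieske iron-sulfur protein (0.25 ± 0.06). In complex V, 2 of 19 (10.5%, below the background of 15.6%) were higher, *atp5fa1*, the catalytic-head α subunit (0.22 ± 0.07), and *atp5mc1*, a subunit of the membrane ring that shares its mature sequence with paralogs and may share reads with them (0.19 ± 0.06). All 4 overlapped between the mothers, and *atp5fa1* was called in 11 and *atp5mc1* in 9 of the 12 fits that left out 1 pool. Of the nuclear core subunits of all complexes, 21 of 27 listed were tested and 9 (42.9%) were called higher over the mother's genotype, with 0 lower. Split by own genotype, 8 (38.1%, background 8.19%) were higher and 1 lower in heterozygotes, and 3 (14.3%, near the background of 11.8%) higher and 0 lower in knockouts.

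In complex IV the mother's genotype moved muscle isoforms in opposite directions. *cox6a2* was higher, at 7.50, 8.49 and 5.22 CPM in Het, 6.37, 7.39 and 6.72 CPM in ZKO, 11.1, 9.57 and 10.7 CPM in MHet and 8.67, 10.4 and 8.85 CPM in MZKO. The highest pool of a Het female (8.49 CPM) was just under the lowest of a ZKO female (8.67 CPM), and the log2 fold change was 0.51 ± 0.12 (adjusted p 0.00291). *cox7a1* was the 1 member called lower (−0.36 ± 0.09, adjusted p 0.00552), with 17.7 to 23.9 CPM in the pools of Het females and 12.4 to 18.7 CPM in those of ZKO females, and these ranges overlapped. *cox8b*, the third muscle isoform, was not called (0.21 ± 0.11). Split by own genotype, *cox6a2* was called in MHet against Het (adjusted p 0.0252) but not in MZKO against ZKO (adjusted p 0.0702). *cox7a1* was called in neither (adjusted p 0.0557 and 0.0679, edgeR). The summed level of 5 fast muscle markers overlapped between the groups, at 39946 to 42128 CPM in Het, 41502 to 43060 CPM in ZKO, 40948 to 46370 CPM in MHet and 36071 to 41182 CPM in MZKO, and none of the 5 was at 0. 4 of the 5 were below 0 over the mother's genotype and 2 were called lower, and their part in these 2 results was not tested.

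The genes around the complexes were counted in the same comparison. Of 36 assembly factors that the symbol rule did not take in, 17 were higher and 0 lower, among them *uqcc3* (0.94) and *uqcc1* (0.76), which act in the assembly of complex III. Of 13 mobile carriers and missed subunits, 8 were higher and 1 lower, with *coq8b* of ubiquinone synthesis (0.89) and *cycsb*, a cytochrome c (0.55), as those of smallest p. Of 74 mitochondrial ribosomal protein genes 15 were higher and 0 lower, and *mrpl12* rose by 0.77. In the TCA cycle, which complex II also serves, 6 of 21 genes were higher and 0 lower, by at most 0.29 (*ogdha*). Of 18 regulators of mitochondrial genes, 4 were higher and 6 lower, and those of smallest p went opposite ways: *ppargc1b*, a coactivator, fell by 0.54 on the log2 scale and the transcription factor *nrf1* rose by 0.51. Of 32 glycolytic genes 4 were higher and 3 lower. Of 11 transport genes of mitochondria 2 were higher and 3 lower, with *ckmt2a* (−0.45) of smallest p. Of 5 uncoupling genes 2 were higher and 1 lower, *ucp3*, a DEG at −1.06. Against the 15.6% of all genes called higher, the shares were 61.5% of the carriers and missed subunits, 47.2% of the assembly factors, 28.6% of the TCA genes, 20.3% of the mitochondrial ribosome and 12.5% of the glycolytic genes. They were 40% of the uncoupling genes, 22.2% of the regulators and 18.2% of the transport genes. Called lower were 33.3% of the regulators and 27.3% of the transport genes, against 15.8% of all genes.

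The 12 genes of mitochondrial DNA that the table holds went the other way in sign. All 12 were below 0 over the mother's genotype, with a median of −0.17, and 2 were called lower, *mt-atp8* (−0.67) and *mt-co2* (−0.29), a share of 16.7% that was near the 15.8% of all genes. In MHet against Het the median was −0.35 and 3 (25.0%) were called lower, against 8.76% of all genes, while in MZKO against ZKO 0 of 12 were called at an adjusted p under 0.05 in edgeR and 2 had an unadjusted p under 0.05. The summed level of the 12 genes was 26141 to 27208 CPM in Het and 18928 to 22103 CPM in MHet, which did not overlap. In MZKO it was 17852 CPM in pool 3 and 26003 to 26665 CPM in the others, a wider spread than the 23252 to 28049 CPM of ZKO. The libraries were made from polyadenylated RNA, so these levels also depend on the tails of mitochondrial transcripts.

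**Figure D3:**
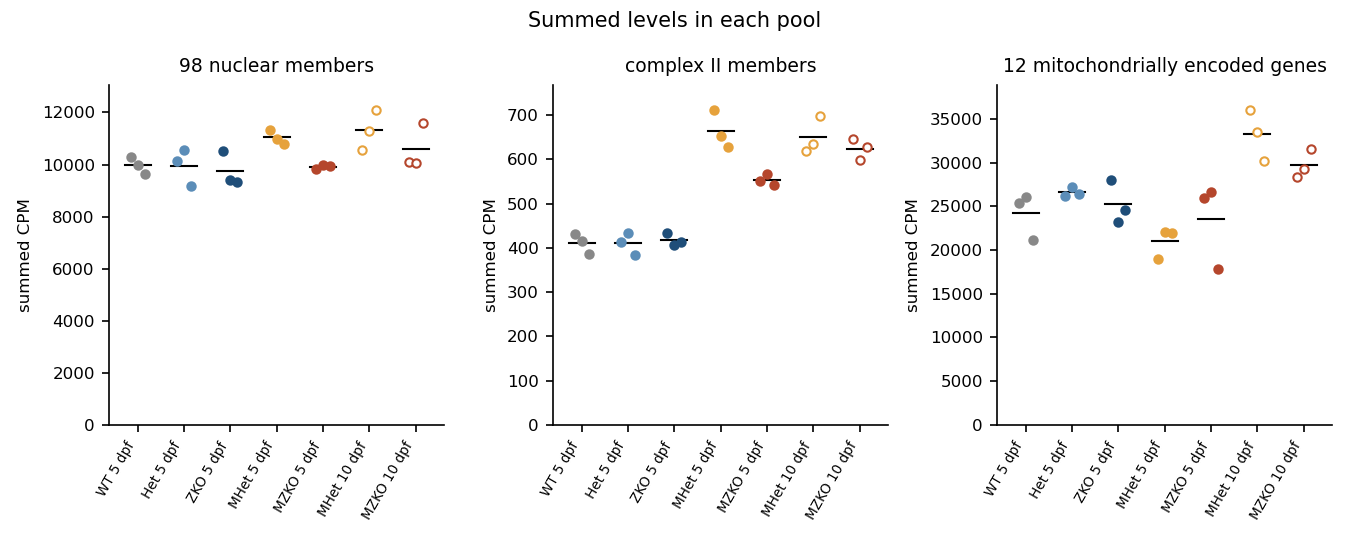
Summed level (y axis, CPM, from 0) of the 98 nuclear members, of the 9 complex II genes and of 12 mitochondrially encoded genes in every pool (points; open points at 10 dpf; lines are group means) of the 7 groups. The complex II sum was 384 to 434 CPM in all pools from Het females and 542 to 712 CPM in the 5 dpf pools from ZKO females. At 5 dpf the sum of all members in MZKO overlapped that of the pools from Het females. The MHet pools of 5 dpf (10804 to 11321 CPM) lay above all pools from Het females.

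Whether the effect of the mother's genotype differed with the larva's own was tested as an interaction. None of the 98 members was called in edgeR, where 1.59% of all genes were higher and 1.02% lower and 0.31% were DEGs. 18 members had an unadjusted p under 0.05, and DESeq2 called 1 lower. The median was −0.15, with 78 of 98 below 0, and it was −0.06 without ZKO pool 1. The smallest p values belonged to *sdhb* (−0.41 ± 0.12, adjusted p 0.0673), *ndufaf4* (−0.94 ± 0.29, adjusted p 0.0824) and *ndufb10* (−0.39 ± 0.13, adjusted p 0.118). A difference in the mother's effect between heterozygotes and knockouts was therefore not established for any single member.

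The own genotype among offspring of ZKO females was compared between MZKO and MHet at 5 dpf. Here 9 members (9.18%) were lower and 1 (1.02%) higher, against 4.34% lower and 5.31% higher among all genes, and 0 were DEGs where 0.885% of all genes were. The change was small but broad: 83 of 98 members were below 0, the median was −0.17 beside −0.01 for all genes, and 37 had an unadjusted p under 0.05. All 5 complexes had a median below 0, from −0.21 in complex I to −0.08 in complex II. Of the 21 nuclear core subunits tested, 19 were below 0 and 3 (14.3%) were called lower. This comparison shares the MHet pools with MHet against Het, in which 81 members were above 0. The summed level of the members was 9813 to 9978 CPM in MZKO and 10804 to 11321 CPM in MHet. The WT, Het and ZKO pools lay between 9175 and 10557 CPM. By this sum MZKO was within their range and MHet was above it. The number called lower ranged from 2, without MHet pool 1, to 7 in the fits that left out 1 pool, and was 5 without MHet pool 3 or MZKO pool 2, 4 without MZKO pool 1 and 3 without MZKO pool 3. DESeq2 called 14 lower and the fit of only the groups compared 19, while the fit of all 21 samples called 4 lower and 0 higher.

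*ndufb10*, a subunit of the distal membrane arm of complex I, had the smallest p. It lay at 67.1, 66.5 and 64.5 CPM in MHet and at 54.5, 51.9 and 42.9 CPM in MZKO. The groups did not overlap, the WT, Het and ZKO pools (55.9 to 73.4 CPM) lay above every MZKO pool, and the log2 fold change was −0.41 ± 0.09 (adjusted p 0.00657). It was called in all 6 fits that left out 1 pool.

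Of the same arm, *ndufb8* (−0.38 ± 0.10) and *ndufb7* (−0.35 ± 0.10) were also lower, and all 9 ndufb genes were below 0. *ndufa5* (−0.34 ± 0.09), of the peripheral arm, was lower as well. Each of these named genes was separated between MHet and MZKO. They were named for their small p, and the share of all genes so separated is not given here. *ndufb7* was called in only 1 of the 6 fits that left out 1 pool, *ndufa5* in 2 and *ndufb8* in 3. *ndufa4* was the member called higher (0.34 ± 0.09), with 63.2, 74.5 and 63.1 CPM in MHet and 81.0, 84.7 and 88.2 CPM in MZKO, and it was called in 2 of the 6 fits, not without MHet pool 1, MHet pool 3, MZKO pool 2 or MZKO pool 3.

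In complex V, *atp5pb* and *atp5pf*, both of the peripheral stalk that holds the synthase head in place, were lower by 0.35 ± 0.09 and 0.30 ± 0.09. *atp5pb* measured 333, 345 and 318 CPM in MHet and 270, 276 and 235 CPM in MZKO, and the other groups of 5 dpf lay between 275 and 339 CPM. In complex II, *sdhb* (−0.34 ± 0.09) and *sdha* (−0.32 ± 0.09) were lower in MZKO than in MHet, at levels that stayed above those of all Het, ZKO and WT pools. Of the 6 fits that left out 1 pool, *atp5pb* was called in 5, *sdhb* in 4, *sdha* in 2 and *atp5pf* in 1, and the value of *sdha* was −0.21 without MHet pool 1.

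Other mitochondrial lists had the same sign in this comparison. Of 74 mitochondrial ribosomal protein genes 68 were below 0 with 3 (4.05%) called lower. Of 36 assembly factors 30 were below 0 with 2 (5.56%) called lower, where 4.34% of all genes were. All 7 genes of complex III were below 0, with none called in edgeR and 3 at an unadjusted p under 0.05. Among the genes of mitochondrial DNA 10 of 12 were above 0, with a median of 0.12, and none was called in edgeR while 3 had an unadjusted p under 0.05. All 5 fast muscle markers were also below 0 (median −0.29), 3 of them called lower, at summed levels of 40948 to 46370 CPM in MHet and 36071 to 41182 CPM in MZKO. All 4 liver markers (median −0.29, none called) and all 4 neuron markers (median −0.15, 1 called lower) were below 0 too. Ionocyte markers went the other way in sum, at 245 to 263 CPM in MHet and 335 to 367 CPM in MZKO. Among them *ca2* was called higher (0.57), while *foxi3a* was at −0.33 and not called. The 3 slow muscle markers had a median of 0.01, with none called. The part of these markers in the lower levels of the members was not tested.

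Among offspring of Het females, ZKO was compared with WT at 5 dpf. A single member was called, *cox6b1*, a complex IV subunit on the side of the intermembrane space, against 2.66% of all genes lower, 1.43% higher and 0.547% DEGs. It measured 50.6, 50.2 and 51.3 CPM in WT and 42.6, 39.0 and 32.0 CPM in ZKO, with 42.9 to 47.0 CPM in Het, so WT and ZKO were separate. The log2 fold change was −0.42 ± 0.10 (adjusted p 0.0161), and it was called in 3 of the 6 fits that left out 1 pool, not without WT pool 1, WT pool 2 or ZKO pool 3. Without WT pool 3 the number of members called lower was 3. The median over the members was −0.02, 43 of 98 were above 0 and 5 had an unadjusted p under 0.05. The complex II genes *sdha* (−0.02 ± 0.09), *sdhb* (0.15 ± 0.09) and *sdhaf2* (0.05 ± 0.10) were not called here. All 5 fast muscle markers were above 0 (median 0.21, none called), while all 3 heart and all 4 liver markers were below 0 with 2 of each called lower. The neuron markers *elavl3* (0.33) and *gap43* (0.32) were called higher, and the ionocyte markers *trpv6* (−0.84) and *ca2* (−0.38) lower. The part of all these markers in the value of *cox6b1* was not tested.

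**Figure D4:**
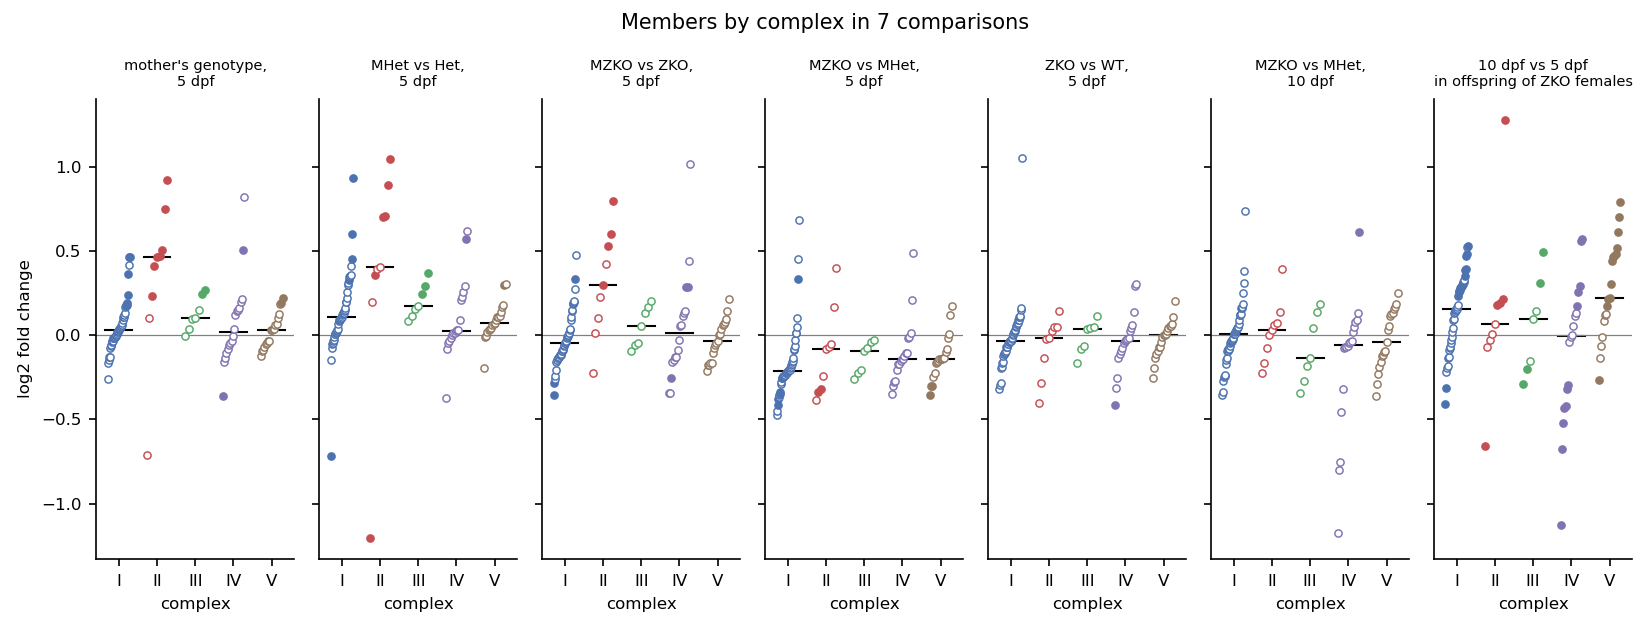
Log2 fold change (y axis) of every member (points) by complex (x axis) in 7 comparisons, with filled points for members called at an adjusted p under 0.05 and a line for the median of the complex. Complex II lies highest in the comparisons of the mother's genotype (median 0.47 in the first), all complexes have medians below 0 in MZKO against MHet at 5 dpf, and complex V lies highest in the comparison of ages (median 0.22).

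At 10 dpf, when MZKO larvae were compared with MHet larvae of the same crosses, the members were split about evenly around 0. The median was −0.02, with 47 of 98 above 0. Of the 21 nuclear core subunits tested, 17 were below 0 (median −0.09). None of them was called in edgeR and 5 had an unadjusted p under 0.05. The member called was *cox4i2*, and 0 were lower or DEGs, where 0.441% of all genes were higher, 1.23% lower and 0.0424% DEGs. These DEGs were 10 of 23597 genes. The study, which used DESeq2, reported far more DEGs between these groups at 10 dpf. Members not called here are thus not shown to be unchanged. 12 members had an unadjusted p under 0.05, a smaller share than the 4746 of 23597 among all genes tested. Other settings called members lower: DESeq2 called 1 and the fit of all 21 samples called 7.

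*cox4i2* encodes the isoform of a regulatory complex IV subunit that responds to low oxygen in mammals. It lay at 22.2, 24.1 and 19.2 CPM in MHet and 31.4, 34.9 and 34.2 CPM in MZKO, without overlap. At 5 dpf the same groups lay at 38.3, 36.3 and 40.0 CPM and at 37.6, 35.1 and 31.4 CPM, so the level of MZKO at 10 dpf was near that of 5 dpf and the level of MHet was below it. The log2 fold change was 0.62 ± 0.12 (adjusted p 0.0377), and it was called in 2 of the 6 fits that left out 1 pool: without MHet pool 1, MHet pool 3, MZKO pool 1 or MZKO pool 2 no member was called higher. The more widely used isoform *cox4i1* was at 310 to 317 CPM in MHet and 284 to 323 CPM in MZKO (−0.07 ± 0.11).

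The muscle isoforms *cox6a2* and *cox8b* had the largest differences below 0 after *cox4i1l*, a gene of at most 1.18 CPM at 10 dpf, but none passed the test. *cox8b* measured 15.6, 13.6 and 20.5 CPM in MHet and 8.26, 8.86 and 12.4 CPM in MZKO, which did not overlap, with a log2 fold change of −0.75 ± 0.20 (adjusted p 0.0761). It was called in 2 of the 6 fits that left out 1 pool, those without MHet pool 2 or MZKO pool 3, with values from −0.95 to −0.57. *cox6a2* measured 7.12, 5.87 and 11.6 CPM in MHet and 4.56, 4.02 and 5.46 CPM in MZKO (−0.80 ± 0.26, adjusted p 0.128), with values from −1.0 to −0.47 in those fits. *cox7a1*, the third muscle isoform, was at 21.7 to 23.9 CPM in MHet and 23.1 to 27.8 CPM in MZKO (0.13 ± 0.12). The counterparts *cox6a1* (−0.07 ± 0.12) and *cox8a* (0.02 ± 0.10) had values near 0. *cox6b1* was called lower in ZKO against WT but higher in MZKO against ZKO at 5 dpf. At 10 dpf it was at 42.8, 39.8 and 49.4 CPM in MHet and 30.9, 28.7 and 36.5 CPM in MZKO (−0.46 ± 0.13, adjusted p 0.0837).

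Markers of several tissues differed between the same pools. The 5 fast muscle markers summed to 35149 to 39245 CPM in MHet and 25930 to 27566 CPM in MZKO (median −0.35, all 5 below 0, 1 called lower). The 3 heart markers found summed to 16.9 to 38.8 CPM and 7.37 to 13.1 CPM (all 3 below 0), and the 4 liver markers to 1330 to 3117 CPM and 262 to 537 CPM (all 4 below 0). None of these 7 was called in edgeR, and all 7 had an unadjusted p under 0.05. None of these 12 markers was at 0 in all 3 pools of a group. All 4 neuron markers were above 0 (median 0.27, none called), at 1202 to 1547 CPM in MHet and 1616 to 1709 CPM in MZKO. All 3 photoreceptor markers were also above 0 (median 0.09, none called). The tested markers of slow muscle, red cells, lens, gut, exocrine pancreas and ionocytes were all below 0, with 1 of red cells called lower. The part of all these markers in the values of *cox6a2*, *cox8b* and *cox4i2* was not tested.

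**Figure D5:**
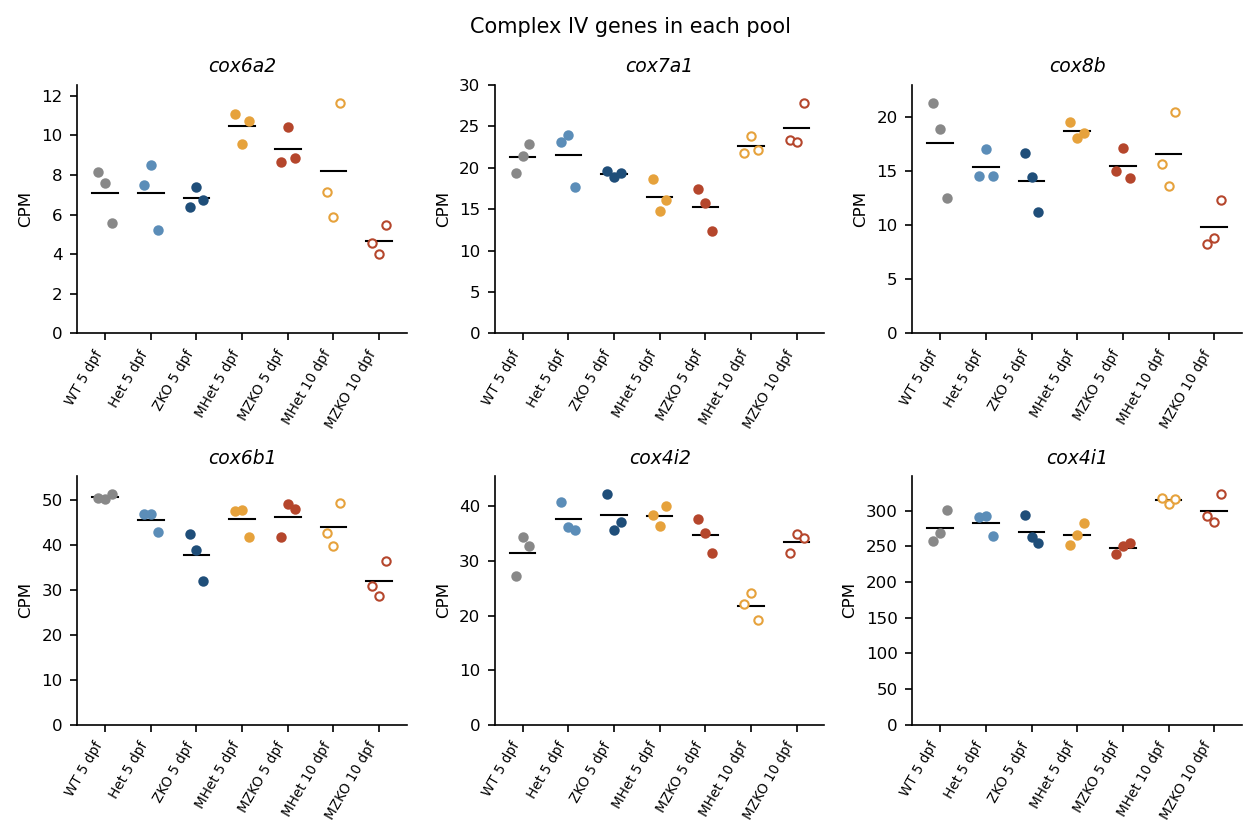
Level of 6 complex IV genes (y axis, CPM, from 0) in every pool (points; open points at 10 dpf; lines are group means) of the 7 groups. *cox4i2* was at 19.2 to 24.1 CPM in MHet at 10 dpf, below all other pools, while *cox8b* and *cox6b1* had their lowest pools in MZKO at 10 dpf, at 8.26 and 28.7 CPM.

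Of the remaining lists at 10 dpf, 19 of 21 TCA genes were below 0, with a median of −0.21 and 1 called lower (*ogdhb*, −0.61), and 10 of 12 genes of mitochondrial DNA were below 0 with 1 called (*mt-nd4l*, −0.62). Of 31 glycolytic genes 4 were called lower, with *pfkma* (−0.80) and *pgam2* (−0.64) having the smallest p. The mitochondrial ribosome had a median of 0.05 with none called in edgeR and 3 at an unadjusted p under 0.05.

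Between 5 and 10 dpf, in MHet and MZKO together, the members called higher outnumbered those called lower. The counts were 42 (42.9%) higher and 14 (14.3%) lower, against 26.4% and 26.2% of all genes, and 3 were DEGs where 18.4% of all genes were. The median was 0.15 beside 0.01 for all genes. By complex, 19 of 45 genes of complex I, 4 of 9 of complex II, 2 of 7 of complex III, 5 of 18 of complex IV and 12 of 19 of complex V were higher. Lower were 3 in complex I, 1 in complex II, 2 in complex III, 7 in complex IV and 1 in complex V. In complex IV the lower calls thus outnumbered the higher ones, of which the share (27.8%) was near the background, and complex III was evenly split.

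Complex V had the highest share of higher calls of the complexes. Its summed level overlapped between the ages, at 4992 to 5377 and 5052 to 5795 CPM in MHet and 4612 to 4914 and 4513 to 5324 CPM in MZKO. Of unscaled counts, all members took 1.11% to 1.14% in MHet at 5 dpf and 0.966% to 1.09% at 10 dpf. In MZKO they took 1.05% to 1.06% and 1.00% to 1.13%. The higher levels with age were thus seen after scaling of the libraries. The inhibitor genes *atp5if1a* and *atp5if1b*, whose mammalian counterpart stops the synthase from running backwards, were among the 3 members of smallest p. *atp5if1a* went from 50.7, 48.9 and 47.8 CPM to 61.6, 68.4 and 62.7 CPM in MHet and from 40.8, 43.2 and 35.9 CPM to 63.5, 70.1 and 81.6 CPM in MZKO. All 6 pools of 10 dpf were above all 6 of 5 dpf (log2 0.62 ± 0.08, adjusted p 5.40e-07). *atp5if1b* rose by 0.48 ± 0.06. The DEGs *atp5mea*, a subunit e of the membrane part (0.79 ± 0.11), and *atp5f1e*, the ε subunit of the stalk (0.71 ± 0.10), also separated the ages, while the α subunit gene *atp5fa1* was lower (−0.27 ± 0.07).

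Outside complex V, *cox7a2l*, which in mammals joins complexes III and IV into supercomplexes, rose by 0.56 ± 0.07, and *ndufa6* (0.53 ± 0.07) and *ndufa3* (0.49 ± 0.07) of complex I rose without overlap between the ages. *sdhda* was the third DEG (1.28 ± 0.26), at 0.60 to 1.29 CPM at 5 dpf and 1.83 to 3.98 CPM at 10 dpf. The members that fell with the smallest p were *cox4i2* (−0.43 ± 0.08), *sdhaf1* (−0.66 ± 0.13), *uqcrc1*, a core protein of complex III (−0.29 ± 0.06), *ndufa10* (−0.32 ± 0.07) and *cox6a2* (−0.68 ± 0.15). The muscle isoforms split again, since *cox7a1* rose (0.58 ± 0.09) and *cox8b* fell (−0.42 ± 0.13). *sdha*, which differed between the mothers, was at 208 to 291 CPM at 10 dpf and did not pass the test between the ages (−0.03 ± 0.07, adjusted p 0.77).

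The genes of mitochondrial DNA also rose with age, 11 of 12 called higher with a median of 0.54. *mt-nd3* had the smallest p (1.21 ± 0.11), and *mt-nd4l* was the one not called (0.11 ± 0.17). Of 74 mitochondrial ribosomal protein genes 60 were higher and 0 lower. Of 32 glycolytic genes 4 were higher and 19 lower, with *pkmb* at −1.19.

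The effect of MZKO against MHet at 10 dpf was compared with that at 5 dpf in 1 fit of all pools. 5 members (5.10%) had a more positive difference at 10 dpf and 1 (1.02%) a more negative one, below the 6.65% and 7.46% of all genes, and 1 was a DEG where 3.6% of all genes were. The DEG was *cox4i2* (0.75 ± 0.15, adjusted p 0.00199), and the other positive ones were *ndufa5* (0.65 ± 0.16), *ndufaf2*, an assembly factor (0.73 ± 0.23), *ndufa7* (0.53 ± 0.18) and *atp5pf* (0.43 ± 0.14). The negative one was *cox6b1* (−0.48 ± 0.15). *ndufa5* showed the pattern in its pools: MHet had 50.4, 45.7 and 52.4 CPM and MZKO 37.3, 40.1 and 40.4 CPM at 5 dpf, while at 10 dpf MHet had 36.0, 50.6 and 46.9 CPM and MZKO 51.8, 51.2 and 62.6 CPM. MZKO was below MHet at the first age and above it at the second, in each case without overlap. *cox4i2* and *ndufa5* were called in all 12 fits that left out 1 pool, *ndufaf2*, *atp5pf* and *cox6b1* in 4 and *ndufa7* in 3, and the number of members with a more positive difference ranged from 2, without MHet pool 1 of either age or MZKO pool 3 of 5 dpf, to 7. It was 3 without MHet pool 2 or 3 of 5 dpf, MZKO pool 1 or 2 of 5 dpf, or MZKO pool 3 of 10 dpf. Without MZKO pool 3 of 10 dpf, 2 members had a more negative difference, and without MHet pool 1 or 3 of either age, MZKO pool 2 of either age or MZKO pool 3 of 5 dpf, none had.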

How the data were processed

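Poly(A) libraries were strand-specific. The authors trimmed the first 10 bases of each read, removed reads under Phred 20, aligned with HISAT2 to GRCz11 and counted reads per gene with featureCounts on the Lawson annotation, and Trim Galore is named in the submitters' processing notes. The strand and multi-mapping settings are not given in the sources used here. The deposited counts per gene were used as deposited, in 1 table of 21 samples. Members and gene lists were chosen with earlier results of these data known.

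Counts were tested with edgeR 4.0.16 in R 4.3.3 (filterByExpr, TMM, robust quasi-likelihood test, Benjamini-Hochberg adjustment over all genes tested): 15 samples and 24846 genes at 5 dpf, 6 samples and 23597 genes at 10 dpf, and 21 samples and 25346 genes between ages. Standard errors (SE) were derived from the log2 fold change and its F statistic. CPM used TMM-scaled library sizes. The test was also run on simulated counts in which every gene had the same spread between pools. The outcome is not given here, and that run does not measure how reliable the calls in these pools are. Genes named were all DEGs, the 5 higher and 5 lower members with the smallest p under the threshold (the 3 smallest where none passed), core subunits, isoform pairs and, of other lists, the 2 smallest p. Members named beyond these were chosen after their values were seen. 1 member is counted but its values are not reported here. Alternatives were DESeq2 1.42.0, RLE size factors, other filters, other sample sets, a replicate block and leaving out each pool. Figures were drawn with matplotlib 3.10.9. No sequence was used here.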

Additional observations from a re-analysis of the deposited data

Results flagged for a closer look

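The difference between MZKO and MHet changed from 5 to 10 dpf for 6 members, by the interaction term of the fit of all 21 pools (edgeR, adjusted p under 0.05). The shares, 5.10% more positive and 1.02% more negative, were below the 6.65% and 7.46% of all genes. The change in the log2 fold change was 0.75 ± 0.15 for *cox4i2* (adjusted p 0.00199), 0.65 ± 0.16 for *ndufa5* (0.00907), 0.73 ± 0.23 for *ndufaf2* (0.0355), 0.43 ± 0.14 for *atp5pf* (0.036) and 0.53 ± 0.18 for *ndufa7* (0.0476). For *cox6b1* it was −0.48 ± 0.15 (0.038). *cox4i2* and *ndufa5* were called in all 12 fits that left out 1 pool, *ndufaf2*, *atp5pf* and *cox6b1* in 4 and *ndufa7* in 3. Age and batch cannot be told apart in these values, and neither can own genotype and housing at 10 dpf.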

How the results depend on the processing

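The alternatives were run for the members called (121 pairs of a member and a comparison) and for *cox6a2* and *cox8b* at 10 dpf, and for no other named gene. Of their 733 values outside the fits that left out 1 pool, 682 kept their side of the threshold, 46 lost it, 5 gained it and 0 reversed. The replicate numbers did not pair the samples (0 of 21 group pairs, correlations from −0.37 to 0.21).

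For MZKO against MHet at 10 dpf, the members called lower numbered 1 with DESeq2, 7 with all 21 samples in 1 fit, 1 with no filter and 1 with the replicate block, and at the DEG threshold 0 were higher. For the mother's genotype, 2 were lower with 10 counts in every sample, with all 21 samples and with only the groups compared, and at the DEG threshold 2 were higher and 0 lower. For MZKO against MHet at 5 dpf, 14 were lower with DESeq2 and 19 with only the groups compared, while all 21 samples gave 0 higher and 4 lower and the DEG threshold 0 and 0. For ZKO against WT, 2 were lower with DESeq2, 0 with only the groups compared and 0 at the DEG threshold. For MHet against Het, 1 was lower with all 21 samples, with no filter and with the replicate block, and 5 higher and 0 lower at the DEG threshold. For MZKO against ZKO, 1 was lower with all 21 samples, 2 with no filter and 2 with only the groups compared, and 1 higher and 0 lower at the DEG threshold. For the interaction of mother and own genotype DESeq2 gave 1 lower. For age, 3 were higher and 0 lower at the DEG threshold. For age by own genotype, the block gave 3 and 0 and the DEG threshold 1 and 0. The causes were not tested.

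Leaving out 1 pool gave 0 to 1 higher and 0 to 2 lower for MZKO against MHet at 10 dpf (median −0.10 to 0.04), 15 to 27 and 1 to 2 for the mother's genotype (median 0.02 to 0.09), 0 to 1 and 2 to 7 for MZKO against MHet at 5 dpf (median −0.19 to −0.13), 0 to 3 lower for ZKO against WT (median −0.09 to 0.02), 8 to 17 and 1 to 2 for MHet against Het (median 0.06 to 0.15), 4 to 9 and 0 to 4 for MZKO against ZKO (median −0.057 to 0.077), 0 to 1 and 0 to 1 for mother by own genotype (median −0.20 to −0.058), 29 to 44 and 13 to 16 for age (median 0.09 to 0.16), and 2 to 7 and 0 to 2 for age by own genotype (median 0.05 to 0.18).

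The smallest detectable change was not determined. Genes under about 3 counts in a pool (0.133 to 0.196 CPM) give no level.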
